A study of Mus musculus with 5 samples.

Results

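Alveolar type 1 (AT1) cells were examined in droplet-based single-cell RNA counts of 5 fetal mouse lungs, taken at E18.5. AT1 barcodes were chosen by their own transcripts: at least 500 genes, at most 15% mitochondrial counts, at least 3 of the 6 markers Ager, Rtkn2, Akap5, Aqp5, Clic5 and Hopx, and at most 2 of the 6 alveolar type 2 (AT2) markers Lamp3, Slc34a2, Abca3, Cxcl15, Etv5 and Sftpd. Barcodes with any count of Ptprc, Cdh5, Pecam1 or Pdgfra, or with both Mki67 and Top2a, were left out. This gave 646 of 19491 barcodes that passed the gene and mitochondrial limits, of 50355 in the files. The 2 embryos of the Het group were Zswim8+/- and the 3 of the KO group Zswim8-/-, so every embryo carried at least 1 mutant allele and no wild-type lung was compared. Each library came from a single dissociated whole lung. The labels used here do not state the design of the allele or the genetic background. Both Het embryos and KO3 were male by their Y-linked counts, and KO1 and KO2 were female, so sex and genotype were partly confounded.

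AT1 cells are the thin, flat epithelial cells that cover most of the gas-exchange surface. They form late in fetal life from the same progenitors as AT2 cells, the makers of surfactant, and they carry caveolae, water and sodium channels and a basement membrane shared with the capillary. ZSWIM8 is the substrate adaptor of a Cullin-RING ubiquitin ligase that acts on Argonaute when certain trigger transcripts pair extensively with a microRNA, which leads to decay of that microRNA. MicroRNAs themselves were not measured in these libraries.

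Het1 held 214 members and Het2 held 187. KO1 held 68, KO2 held 73 and KO3 held 104. Values are given in this order of libraries throughout. No AT1 barcode sequence occurred in more than 1 library. Library totals ranged from 56608582 to 93708304 unique molecular identifiers (UMIs, each a counted transcript molecule). The median AT1 barcode held 6809 and 8229 UMIs in the Het libraries and 7199, 10214 and 8562.5 in the KO libraries.

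The members were not all alike. For 568 of 646 barcodes, the 6 markers made up at least 0.1% of the UMIs. The other 78 barcodes fell below that share: 20 and 22 in the Het libraries and 15, 8 and 13 in the KO libraries. These marker-poor barcodes were deep, with a median of 20005.5 UMIs against 7036 for the rest, and none had all 6 markers. They held 20.5% and 30.4% of the AT1 UMIs in the Het libraries and 61.3%, 28.9% and 19.5% in the KO libraries. A single barcode of 150069 UMIs made up 16.5% of the KO1 sum.

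**Figure D1:**
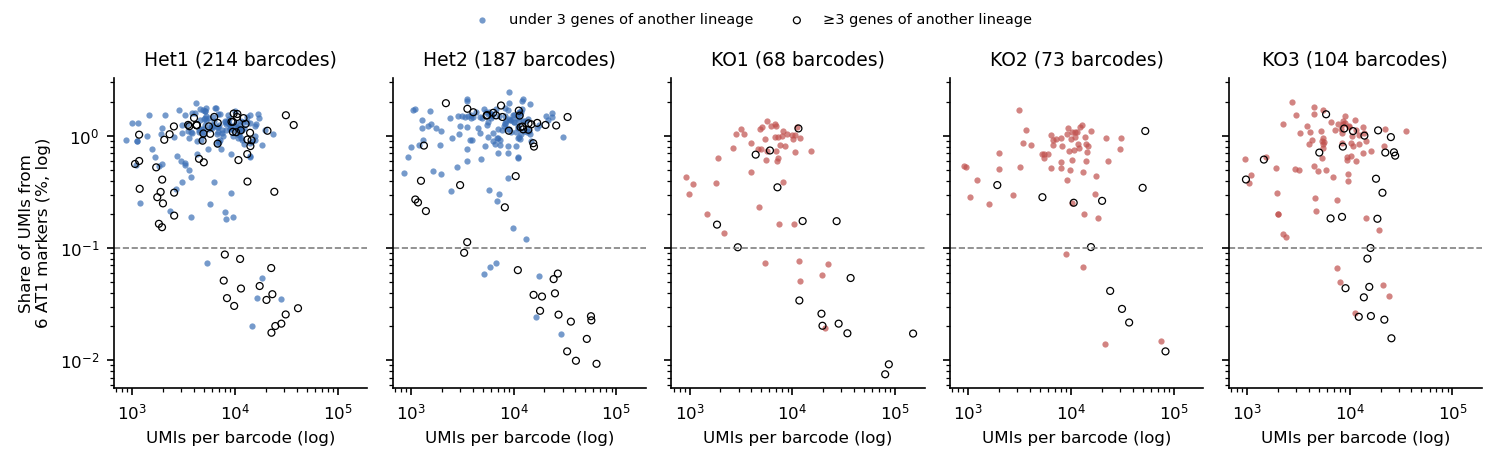
Each point is an AT1 barcode, by its UMIs (log axis) and the share of them that came from the 6 AT1 markers (percent, log axis), in 1 panel per library; open black circles have at least 3 genes of another lineage. The median barcode lies at 0.933%, and a tail of deep barcodes lies below the dashed line at 0.1%.

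The marker-poor barcodes carried the genes of other cells. Ager, which encodes a receptor that marks AT1 cells, stood at 37.4 to 114 CPM (counts per 1e6, scaled by library size) in their sums against 3322 to 6412 CPM in the other members. Scgb1a1, a secretory airway gene, stood at 2080 to 13780 CPM there and at 20.4 to 383 CPM in the others. Col1a1, a fibrillar collagen of fibroblasts, stood at 495 to 2663 CPM there and at 22.1 to 126 CPM in the others. Of these 78 barcodes, 76 had airway transcripts (limits given below) or at least 3 genes from a list of immune, endothelial, mesenchymal or mesothelial genes. Among all 646 members, 171 had at least 3 such listed genes, 52 of them marker-poor. Airway transcripts were found in 68 members, 44 of them marker-poor. These counts were not adjusted for depth. For the 78 barcodes the data go against the name AT1, and they are called marker-poor barcodes below. The division is not sharp, since 51 members lay between 0.05% and 0.2%.

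Markers that chose the cells were themselves lower in the KO members, which is given as a description only. All 6 markers were detected in 126 and 108 barcodes in the Het libraries and in 15, 24 and 39 in the KO libraries. At the other end, 37 and 26 Het barcodes and 20, 18 and 25 KO barcodes had exactly 3 markers. Just outside the rule, 93 and 68 Het barcodes and 97, 43 and 67 KO barcodes had 2. To allow for depth, each member with fewer than 3 genes of another lineage was thinned to 3000 UMIs, which left 126 and 114 Het barcodes and 42, 54 and 64 KO barcodes, and set aside 21, 24, 9, 8 and 13 that were shallower. The mean number of markers found was then 5.02 and 4.93 in the Het libraries and 4.07, 4.18 and 4.41 in the KO libraries. All 6 were then found in 41.3% and 36.8% of Het and 11.9%, 14.8% and 15.6% of KO barcodes. Unthinned, and with the shallower barcodes counted, 63.3% and 62.3% of Het and 27.5%, 35.5% and 37.7% of KO barcodes had all 6.

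The AT1 share of passing barcodes was 4.44% in Het1 (Wilson 95% interval 3.89 to 5.06) and 4.45% in Het2 (3.87 to 5.11). It was 2.17% in KO1 (1.72 to 2.75), 2.20% in KO2 (1.75 to 2.75) and 2.59% in KO3 (2.14 to 3.13). All 3 KO libraries lay below both Het libraries, with means of 2.32% ± 0.235 (SD, n = 3) and 4.44% ± 0.00588 (SD, n = 2). The difference was -2.12 percentage points, with a two-sided exact permutation p of 0.1, the smallest that 2 against 3 libraries can give.

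Among alveolar epithelial barcodes, that is AT1, AT2 by the mirrored rule and barcodes past both marker thresholds, AT1 made up 39.6% and 45.1% in the Het libraries. The values were 27.9%, 36.3% and 35.02% in the KO libraries, again without overlap. The difference of -9.24 points had the same exact permutation p of 0.1. The alveolar share overlapped between groups in 3 of 10 other choices of barcodes. Without other-lineage barcodes it was 45.8% and 51.7% in Het and 30.5%, 48.1% and 44.8% in KO (exact permutation p 0.5). Under a limit of 1000 genes and 10% mitochondrial counts it was 36.05% and 38.8% in Het and 36.15%, 35.7% and 32.0% in KO (exact permutation p 0.4). The differences shrank to -0.780 points of passing barcodes when no AT2 marker was allowed and to -2.81 points of alveolar epithelial barcodes under that stricter limit. Because the rule counts markers that were lower in KO members, fewer AT1 cells and fewer AT1 transcripts per cell cannot be told apart from these shares. Moreover, 274 and 227 Het barcodes and 75, 48 and 137 KO barcodes met both marker limits but held a transcript of Ptprc, Cdh5, Pecam1 or Pdgfra and were not members.

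**Figure D2:**
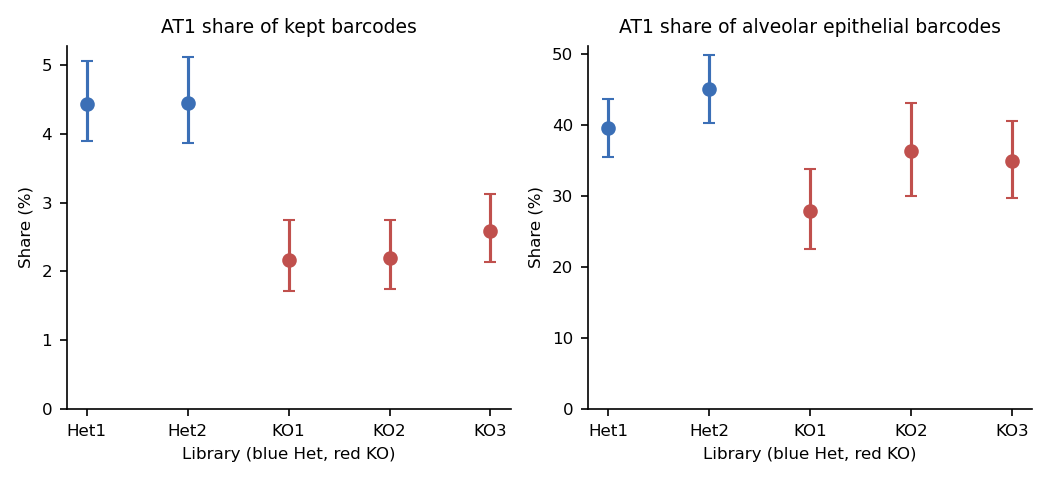
AT1 barcodes as a share of all passing barcodes (left) and of alveolar epithelial barcodes (right), in percent, per library; bars are Wilson 95% intervals and cover counting error only. The KO libraries lie below both Het libraries in each panel, at 2.17 to 2.59% against 4.44 to 4.45% on the left.

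Gene levels were compared by summing the UMIs of the AT1 barcodes in each library and testing Het against KO across libraries with edgeR's quasi-likelihood test. With all 646 barcodes, 0 of 8895 genes passed a Benjamini-Hochberg adjusted p of 0.05 (0%). At an unadjusted p under 0.05 there were 761 (8.56%), and DESeq2 called 33 (0.371%). Of the genes tested, 26.6% had Het and KO values that did not overlap. In simulated counts this fit recovered 0.549% of genes set to change by 1 on the log2 scale. A gene that did not pass may therefore still differ. Zswim8 (ENSMUSG00000021819, chromosome 14 of GRCm38, plus strand, 20707552 to 20723619) was measured at 34 and 45 UMIs in the Het libraries and 11, 17 and 21 UMIs in the KO libraries once barcodes with other-lineage genes were left out. As CPM these were 33.1, 41.7, 30.4, 24.9 and 33.8 CPM, and the log2 fold change of -0.35 (SE 0.27) had an edgeR adjusted p of 0.636. A 3′ count does not check whether the allele makes protein, so the genotypes rest on the labels.

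The genes with the smallest unadjusted p in that fit did not pass the adjusted threshold. Among them, S100a6, Pakap, Gnb4, Srgn, Btg3 and Bcl11a passed once other-lineage and marker-poor barcodes were both left out. Nrg2, Sfrp2 and Scgb3a1 instead sat mostly in marker-poor barcodes. Nrg2, which encodes a neuregulin, stood at 1.84 and 3.18 CPM in Het and 45.5, 21.3 and 34.1 CPM in KO (edgeR adjusted p 0.245), with 73.5% to 100% of its UMIs in marker-poor barcodes. Sfrp2, a secreted inhibitor of Wnt signals made by fibroblasts, stood at 44.0 and 78.9 CPM in Het and 249, 207 and 159 CPM in KO (edgeR adjusted p 0.399), with 64.8% to 100% there. Scgb3a1, a secretoglobin of the airway, stood at 82.6 and 78.4 CPM in Het and 0, 0 and 3.01 CPM in KO (edgeR adjusted p 0.0810), with 96.3% and 98.0% of its Het UMIs there.

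A second reading left out the 171 barcodes with at least 3 genes of an immune, endothelial, mesenchymal or mesothelial list. It kept 147 and 138 Het barcodes and 51, 62 and 77 KO barcodes, 475 in all. It was taken as a second reading after the results were seen. It was 1 of 10 other choices of barcodes that were tried. Here 109 of 6762 genes passed (1.61%), 27 higher in KO (0.399%) and 82 lower (1.21%), 901 had an unadjusted p under 0.05 (13.3%), and 29.4% of genes did not overlap between groups. Of the 109, 104 had the same direction with all barcodes. The 475 barcodes are part of those sums, so this agreement is not independent support. These counts and shares include 5 of the 6 markers that chose the cells, Ager, Akap5, Aqp5, Clic5 and Rtkn2, all called lower. They also include Xist, called higher, which was high only in the female libraries KO1 and KO2. The calls of these genes are not taken as results. Of the 109 called genes, 108 had groups that did not overlap, so a gap between groups, where given below, adds nothing to a call.

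The number called depended strongly on the barcodes. Leaving out the deepest barcodes called 99 genes (1.52% of those tested), requiring the 6 markers to reach 0.1% of UMIs called 272 (3.73%), and requiring all 6 markers called 48 (0.887%), while requiring at least 4 markers, no AT2 marker or no airway transcripts called 0. Leaving out the deepest barcodes, the other-lineage barcodes or the marker-poor barcodes called 64 genes in common, 16 higher and 48 lower. These sets of barcodes overlap, so their calls are not independent. Xist is among the 16, and the markers Ager, Aqp5 and Rtkn2, which chose the cells, are among the 48. With the embryo's sex as covariate only 4 genes passed in the second reading, all higher in KO: H19, Fbn2, Wdcp and Gm10076. With a library left out in turn, 24 to 127 passed: 24 without Het1, 27 without Het2, 48 without KO1, 26 without KO2 and 127 without KO3. Of the 50 genes named by rule in the second reading, 8 passed whichever library was left out: Aqp1, Col4a3, Fbn2, H19, Pf4, Prdx6, S100a6 and Sftpc.

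AT1 genes other than the 6 used to choose the cells had mostly lower levels in the KO members. Of 35 such genes, 32 were tested in the second reading: 13 fell and 0 rose, against 1.21% and 0.399% of all genes tested. There were 31 below 0, and the median log2 fold change was -0.64 against 0.011 over all genes tested. With all barcodes, 33 of 34 were below 0 with a median of -0.71, but 0 passed. Among barcodes with all 6 markers, 31 of 31 were below 0, 5 fell (0.499% of all genes tested fell in those barcodes), and the median was -0.37.

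S100a6 encodes a small calcium-binding protein that is abundant in AT1 cells. It stood at 3677 and 3921 CPM in Het and at 1112, 1440 and 2039 CPM in KO, from 403 to 4234 UMIs. The gene, ENSMUSG00000001025, lies on chromosome 3 of GRCm38, plus strand, at 90612882 to 90624181. No KO library came near either Het library. The log2 fold change was -1.31 (SE 0.18), with an edgeR adjusted p of 0.00442, and it was -0.97 among barcodes with all 6 markers (edgeR adjusted p 0.0109).

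Emp2, an epithelial membrane protein that is a marker of AT1 cells, was measured at 3266 and 3380 CPM in Het and at 1843, 1968 and 2369 CPM in KO. Its groups did not overlap, and the log2 fold change was -0.69 (SE 0.12, edgeR adjusted p 0.0134). Among barcodes with all 6 markers the change was -0.44 and did not pass (edgeR adjusted p 0.216).

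Pdpn, the mucin-like podoplanin of the AT1 surface, was measured at 311 and 336 CPM in Het and at 171, 116 and 193 CPM in KO (log2 fold change -1.03, SE 0.19, edgeR adjusted p 0.0172). Prdx6, a peroxidase that also acts on phospholipids, was measured at 667 and 663 CPM in Het and at 309, 259 and 375 CPM in KO (-1.08, SE 0.15, edgeR adjusted p 0.00561). Both were lower in each KO library than in either Het library. Also called lower were Cryab, a small heat-shock protein (-0.88), Ndnf, a secreted protein first known from neurons (-0.75), Limch1, an actin-associated protein (-0.71), and Gramd2 (-0.95).

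Other AT1 genes had values below 0 without passing. Vegfa, the growth factor through which AT1 cells act on capillaries, was measured at 1053 and 1017 CPM in Het and at 651, 570 and 893 CPM in KO (log2 fold change -0.55, edgeR adjusted p 0.117). Krt7, a keratin, had -0.57 (edgeR adjusted p 0.0569). Cldn18, a tight-junction claudin of alveolar epithelium, had -0.21 (edgeR adjusted p 0.461). Igfbp2, a marker of mature AT1 cells, was the only tested member above 0, at 13.6 and 11.1 CPM in Het and 22.1, 74.6 and 16.1 CPM in KO (1.69, edgeR adjusted p 0.155). It was called higher with the deepest barcodes left out and with markers at 0.1% of UMIs or more.

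Marker-poor barcodes that remained in the second reading held 7.50% and 7.25% of its UMIs in the Het libraries and 24.7%, 17.3% and 11.3% in the KO libraries. With those also left out, the log2 fold change was -1.21 for S100a6, -0.52 for Emp2, -0.87 for Pdpn and -0.99 for Prdx6, and each passed (edgeR adjusted p 0.000349, 0.0233, 0.00960 and 0.00129). With the sex covariate none of these 4 passed (0.149, 0.422, 0.422 and 0.244, edgeR adjusted p). KO3, the male KO library, had the highest of the KO levels for all 4.

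**Figure D3:**
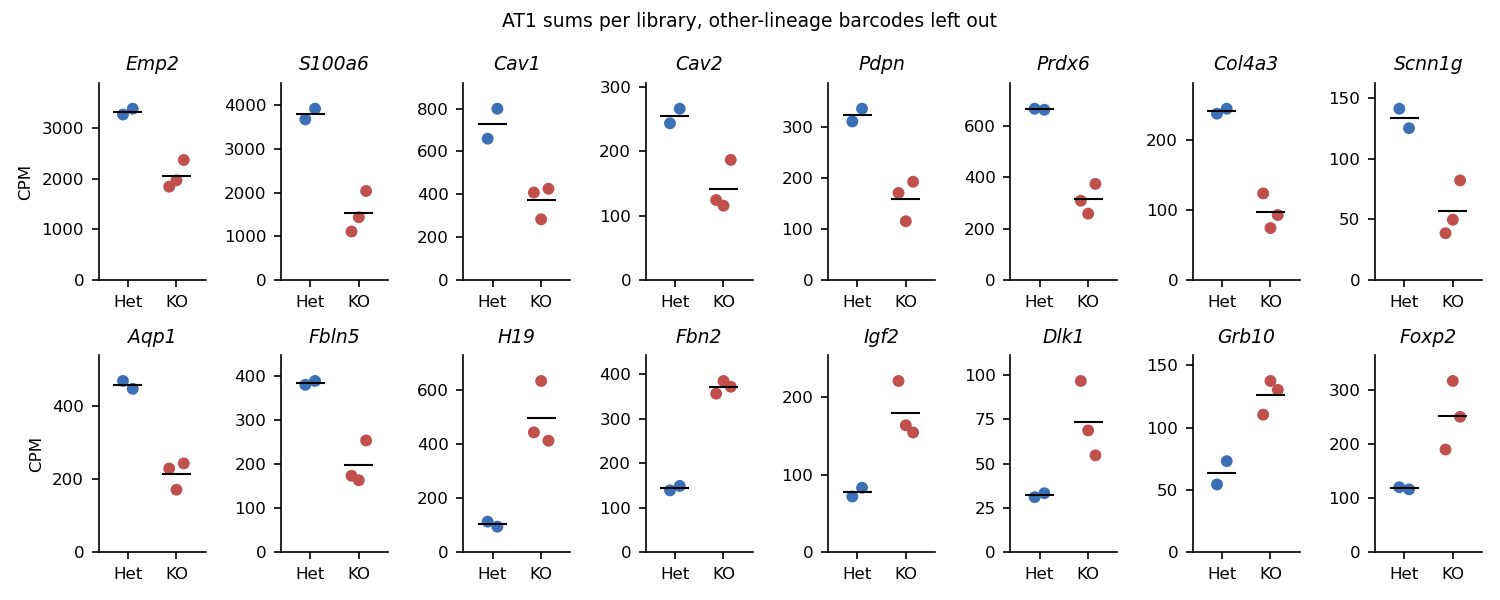
CPM of 16 genes in the AT1 sums of each library (linear axes from 0; blue Het, red KO; bars are group means) with other-lineage barcodes left out. The first 10 genes lie lower in all 3 KO libraries, such as S100a6 at 1112 to 2039 against 3677 to 3921 CPM, and the last 6 lie higher, such as H19 at 413 to 634 against 95.4 to 114 CPM.

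Of 9 genes of caveolae, the flask-shaped membrane pits that are dense in AT1 cells, 7 were tested and 5 fell, against 1.21% of all genes tested. The list median was -0.93. Cav1, the main coat protein of caveolae, was measured at 660 and 799 CPM in Het and at 408, 284 and 426 CPM in KO (log2 fold change -0.98, SE 0.17, edgeR adjusted p 0.0145). Cav2, its partner, was measured at 243 and 266 CPM in Het and at 124, 116 and 187 CPM in KO (-0.83, SE 0.19, edgeR adjusted p 0.0473). In both genes every KO value was below both Het values.

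Cavin2 (-0.94) and Cavin3 (-1.47), which coat and shape caveolae, and Ehd2, an ATPase at their neck (-0.93), were the other 3 called. Cav1 and Cav2 lie next to each other on chromosome 6 of GRCm38, at 17306335 to 17341452 and 17281185 to 17289115, both on the plus strand. With marker-poor barcodes also left out, Cav1 had -0.81 (edgeR adjusted p 0.00921). With all 6 markers required, 0 of 7 caveola genes passed, with a median of -0.57, and with the sex covariate Cav1 had an edgeR adjusted p of 0.422. In the sums of all barcodes the caveola median was -0.25. Endothelial cells also carry caveolae. The summed level of the endothelial list in the second reading was 152 and 145 CPM in Het and 124, 65.8 and 106 CPM in KO. Barcodes had been left out by that list. Of its 2 tested genes 1 was above 0, and the other, Esam, was called lower (-1.53, edgeR adjusted p 0.0196). The part of these levels in the caveola and Aqp1 results was not tested.

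Some but not all collagen IV genes were lower in KO. Col4a3, which with Col4a4 and Col4a5 forms the collagen network of the mature alveolar basement membrane, was measured at 238 and 245 CPM in Het and at 124, 74.6 and 93.3 CPM in KO. Its log2 fold change was -1.36 (SE 0.19, edgeR adjusted p 0.00442), and it was -1.04 with all 6 markers required (edgeR adjusted p 0.0109). Col4a4 was measured at 487 and 489 CPM in Het and at 265, 171 and 286 CPM in KO (-1.03, SE 0.18, edgeR adjusted p 0.0163). The pair is transcribed in opposite directions from neighbouring starts on chromosome 1 (Col4a3 at 82586921 to 82722059, plus strand; Col4a4 at 82448423 to 82586849, minus strand).

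On the separate list of basement membrane genes, 2 of 14 tested were called, both lower, against 1.21% of all genes tested called lower. Col4a5 did not pass, at 137 and 154 CPM in Het and 146, 130 and 153 CPM in KO (-0.030, edgeR adjusted p 0.966), and Col4a6 had 0.18 (0.930). The 2 called were Col4a1 (-0.83, edgeR adjusted p 0.0252) and Col4a2 (-0.96, edgeR adjusted p 0.0275), the widespread collagen IV chains. The median of that list was -0.37, and 12 of 14 were below 0.

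A water channel gene and a sodium channel gene were lower in KO. Aqp1, a water channel known mainly from capillaries, was measured at 468 and 446 CPM in Het and at 229, 171 and 243 CPM in KO (log2 fold change -1.10, SE 0.16, edgeR adjusted p 0.00575). Scnn1g, a subunit of the epithelial sodium channel that clears lung fluid at birth, was measured at 141 and 125 CPM in Het and at 38.6, 49.7 and 82.0 CPM in KO (-1.18, SE 0.23, edgeR adjusted p 0.0261). The KO libraries were below the Het libraries for both. Of the 17 tested genes for junctions and ion transport, these were the 2 called, against 1.21% of all genes tested called lower. In that list 8 were above 0 and 9 below, and the median was -0.15. Slc12a2, a chloride importer, had 0.88 (edgeR adjusted p 0.0625), and it was called higher with the deepest barcodes left out and with markers at 0.1% of UMIs or more. Scnn1b, another subunit of that channel, had -0.67 (edgeR adjusted p 0.195).

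YAP and TAZ are coactivators that respond to stretch and are needed for AT1 fate. Of 17 tested genes of their pathway, 2 fell and 0 rose, against 1.21% and 0.399% of all genes tested. Ccn2, a secreted matricellular target, was measured at 103 and 102 CPM in Het and at 33.1, 51.2 and 53.1 CPM in KO (-1.11, SE 0.21, edgeR adjusted p 0.0202). Ajuba, a scaffold protein that restrains the upstream kinases, had -1.06 (edgeR adjusted p 0.0462), and it did not pass once marker-poor barcodes were also left out (0.0630, edgeR adjusted p). The coactivator genes Yap1 (0.29) and Wwtr1 (-0.24) did not pass.

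Among 13 tested genes for secreted signals, 1 was called, against 1.61% of all genes tested. Pdgfa, the ligand through which alveolar epithelium acts on myofibroblast precursors, was measured at 335 and 313 CPM in Het and at 174, 174 and 209 CPM in KO (-0.80, SE 0.15, edgeR adjusted p 0.0191). The groups were well apart relative to their spread, at 324 ± 15.3 (SD, n = 2) and 186 ± 20.3 (SD, n = 3) CPM. Among elastic fibre genes, Fbln5, a fibulin that binds elastin, was measured at 380 and 389 CPM in Het and at 174, 164 and 254 CPM in KO (-0.95, SE 0.18, edgeR adjusted p 0.0190).

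Promoter sequences were read from RefSeq (GRCm38.p6) for the 13 AT1 genes called lower, and 9 of these had an entry. The 250 bases before each start were searched on both strands for CAAGTG, the core bound by NKX2-1, a factor that is needed for AT1 identity, and for GGAATG, the core bound by the TEAD partners of YAP and TAZ. CAAGTG was found in at least 1 entry for 4 of 9 genes (Cav2, Limch1, S100a6 and Scnn1g) and in 11.6% of 32851 promoter entries. GGAATG was found for 0 of 9 genes and in 12.6% of promoter entries. A gene can have more than 1 entry, so counts of genes and shares of entries are unlike measures and show no excess. The matches of 3 genes are shown, since these encode proteins described above, with the motif or its reverse complement in capitals, each from 5′ to 3′ on the plus strand, for S100a6 at chr3:90612644-90612893, Cav2 at chr6:17280935-17281184 and Scnn1g at chr7:121734229-121734478.
S100a6: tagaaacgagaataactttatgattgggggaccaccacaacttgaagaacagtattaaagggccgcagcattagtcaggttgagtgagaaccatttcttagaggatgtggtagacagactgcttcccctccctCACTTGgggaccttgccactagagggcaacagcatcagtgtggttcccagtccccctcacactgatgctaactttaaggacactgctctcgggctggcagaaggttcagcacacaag
Cav2: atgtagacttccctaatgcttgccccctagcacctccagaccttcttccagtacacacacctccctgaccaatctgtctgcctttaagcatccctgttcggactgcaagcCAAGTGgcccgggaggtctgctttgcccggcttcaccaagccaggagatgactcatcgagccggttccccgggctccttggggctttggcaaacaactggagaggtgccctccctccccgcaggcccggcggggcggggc
Scnn1g: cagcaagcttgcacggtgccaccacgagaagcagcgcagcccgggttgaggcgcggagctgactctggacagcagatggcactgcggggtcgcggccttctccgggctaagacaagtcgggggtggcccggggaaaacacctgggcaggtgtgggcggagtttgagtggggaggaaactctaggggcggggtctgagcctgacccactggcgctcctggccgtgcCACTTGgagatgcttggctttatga
A match describes these letters only and does not show that a factor binds there. Nkx2-1 itself had a log2 fold change of -0.07 (edgeR adjusted p 0.913).

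The genes that rose were led by H19 and Fbn2. H19, an imprinted noncoding RNA of fetal tissue that is also the host transcript of miR-675, was measured at 114 and 95.4 CPM in Het and at 444, 634 and 413 CPM in KO, from 117 and 103 UMIs and 161, 434 and 257 UMIs. Its lowest KO value was far above its highest Het value. The log2 fold change was 2.26 (SE 0.20, edgeR adjusted p 0.000250), and it was 1.98 with the sex covariate (edgeR adjusted p 0.00966). Marker-poor barcodes held 46.4% to 91.8% of its UMIs in the sums of all members, and with them left out as well the change was 2.08 (edgeR adjusted p 2.58e-05). H19 lies on chromosome 7, minus strand, at 142575529 to 142578143 of GRCm38.

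Fbn2 encodes fibrillin-2, a microfibril protein of developing matrix. It was measured at 139 and 149 CPM in Het and at 356, 384 and 372 CPM in KO, with little spread in either group: 144 ± 7.08 (SD, n = 2) and 371 ± 14.3 (SD, n = 3). Its log2 fold change was 1.36 (SE 0.15, edgeR adjusted p 0.000995), and the call held with the sex covariate (edgeR adjusted p 0.0175) and with all 6 markers required (1.29, edgeR adjusted p 0.00858). Fbn2 and Fbln5 were the 2 of 7 tested elastic fibre genes that were called, against 1.61% of all genes tested. They moved in opposite directions.

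Of 24 imprinted genes, 14 were tested, with a median of 0.30. There were 4 that rose and 0 that fell, against 0.399% and 1.21% of all genes tested. Besides H19, those that rose were Igf2, Dlk1 and Grb10. Igf2, a fetal growth factor whose gene neighbours H19, was measured at 72.0 and 83.4 CPM in Het and at 221, 164 and 154 CPM in KO (1.18, SE 0.19, edgeR adjusted p 0.0131). Dlk1, a Notch-related membrane protein, rose from 31.1 and 33.3 CPM to 96.6, 68.7 and 54.7 CPM (1.13, SE 0.26, edgeR adjusted p 0.0473). Grb10, an adaptor that restrains insulin and IGF receptors, rose from 54.5 and 73.2 CPM to 110, 137 and 130 CPM (1.00, SE 0.20, edgeR adjusted p 0.0241).

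These 4 genes do not share a direction with all imprinted genes, as Meg3, the noncoding RNA of the Dlk1 locus, had -0.50 (edgeR adjusted p 0.109). With the sex covariate, Igf2, Dlk1 and Grb10 did not pass (0.349, 0.658 and 0.372, edgeR adjusted p). With all barcodes in the sums, 16 of 19 imprinted genes were above 0, with a median of 0.67, and 0 passed.

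Foxp2, a forkhead repressor of distal lung epithelium, was measured at 121 and 117 CPM in Het and at 190, 317 and 251 CPM in KO (1.12, SE 0.20, edgeR adjusted p 0.0145). Of 19 tested epithelial transcription factors it was the 1 that rose, where 0.399% of all genes tested rose and 1.21% fell. Klf2, a zinc-finger factor best known in endothelium, was the 1 that fell, at 37.9 and 55.6 CPM in Het and 24.8, 17.5 and 9.65 CPM in KO (-1.51, edgeR adjusted p 0.0436), but it was above 0 with all barcodes (0.12). Bcl11a, a zinc-finger repressor, was higher in KO on few counts, 1 and 8 UMIs against 9, 18 and 16 (2.55, SE 0.57, edgeR adjusted p 0.0436). Cd24a, a surface protein of epithelial progenitors, rose from 71.0 and 59.3 CPM to 174, 152 and 142 CPM (1.24, SE 0.18, edgeR adjusted p 0.00575). Ank3, which anchors membrane proteins to the cytoskeleton (1.39), Frem2, a matrix protein of epithelial basement membranes (1.37), and Mt2, a metallothionein (2.06), were also called higher. So were Acsl1, which activates long-chain fatty acids (1.42), Hmgn2, a nucleosome-binding protein (1.45), and Ccno, a cyclin of multiciliated cells (1.49).

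Of the surfactant protein genes, Sftpc and Sftpb rose in the KO members. Sftpc, which encodes surfactant protein C and was not used in the rule, was measured at 1608 and 1371 CPM in Het and at 3204, 4812 and 3350 CPM in KO (1.35, SE 0.16, edgeR adjusted p 0.00162). Sftpb, surfactant protein B, was measured at 52.5 and 46.3 CPM in Het and at 188, 192 and 94.9 CPM in KO (1.66, SE 0.27, edgeR adjusted p 0.0134). Sftpa1 did not pass (0.98, edgeR adjusted p 0.276). Sftpd, which was among the genes that chose the cells, stood lower, at 87.5 and 62.0 CPM in Het and 58.0, 24.9 and 49.9 CPM in KO. Red-cell barcodes, which should hold neither Sftpc nor Sftpb, had 2.07 to 5.09 Sftpc UMIs each at medians of 2328 to 2621.5 UMIs. AT1 barcodes held 11.2 and 10.7 Sftpc UMIs in Het and 22.8, 53.1 and 27.1 in KO.

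Of the 15 tested AT2 genes outside the rule, Sftpc and Sftpb were the 2 called, against 0.399% of all genes tested called higher. The list median was 0.16. Sftpc did not pass with the sex covariate (edgeR adjusted p 0.0922) or with all 6 markers required (0.28, edgeR adjusted p 0.821), and Sftpb was -1.06 when no AT2 marker was allowed. With the remaining marker-poor barcodes also left out, Sftpc had 1.55 (edgeR adjusted p 4.39e-05) and Sftpb 1.42 (0.0115). The 7 tested airway genes were above 0 with a median of 0.79 and 0 passed, while with all barcodes 6 of 9 were below 0 with a median of -0.56. With markers at 0.1% of UMIs or more the airway median was -2.20 with Scgb1a1 and Scgb3a2 called lower, and with all 6 markers it was -1.09 with Scgb1a1 called lower.

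Among the genes called lower, 4 are known from platelets. They were grouped after their values were seen, and no platelet list was tested. Pf4, platelet factor 4, was measured at 209 and 125 CPM in Het and at 16.6, 23.4 and 41.8 CPM in KO (-2.54, SE 0.30, edgeR adjusted p 0.00162). Clec1b, a platelet receptor that binds podoplanin, had 21 and 23 UMIs in Het and 1, 2 and 3 UMIs in KO (-2.49, SE 0.54, edgeR adjusted p 0.0384). Nrgn, also found in platelets, had 54 and 33 UMIs in Het and 2, 8 and 7 UMIs in KO (-2.01, SE 0.39, edgeR adjusted p 0.0215). Groups that did not overlap were a condition of the rule that named these 3.

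A Het AT1 barcode held 1.46 and 0.978 Pf4 UMIs and a KO barcode 0.118, 0.258 and 0.338, while a red-cell barcode held 0.0483 to 0.117 in any library. In all other passing barcodes, where 3.39% of genes passed (0.876% higher and 2.51% lower), Pf4 was instead higher in KO (0.74, edgeR adjusted p 0.0213). Srgn, a proteoglycan core protein of platelets and leukocytes, had 30 and 32 UMIs in Het against 3, 2 and 4 in KO (-2.40, edgeR adjusted p 0.0174). The summed level of the immune list in the same AT1 sums was 214 and 167 CPM in Het and 132, 93.6 and 143 CPM in KO, and barcodes had been left out by that list. The summed level of 8 erythroid genes, which were not used to leave out barcodes, was 57720 and 30710 CPM in Het and 15700, 17450 and 41180 CPM in KO, with overlap between the groups. All 5 of those tested were below 0 with a median of -0.88 and 0 passed, and 631 of the 646 members held at least 3 erythroid genes. The part of these levels in the Pf4 result was not tested. With the sex covariate Pf4 did not pass (edgeR adjusted p 0.149). Other genes called lower by large amounts were Ctla2a (-2.01), Cstdc5 (-1.84), Vldlr, a lipoprotein receptor (-1.81), Gnb4, a G-protein subunit (-1.52), Cttnbp2nl (-1.48) and Amhr2, the receptor for anti-Müllerian hormone (-1.44).

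**Figure D4:**
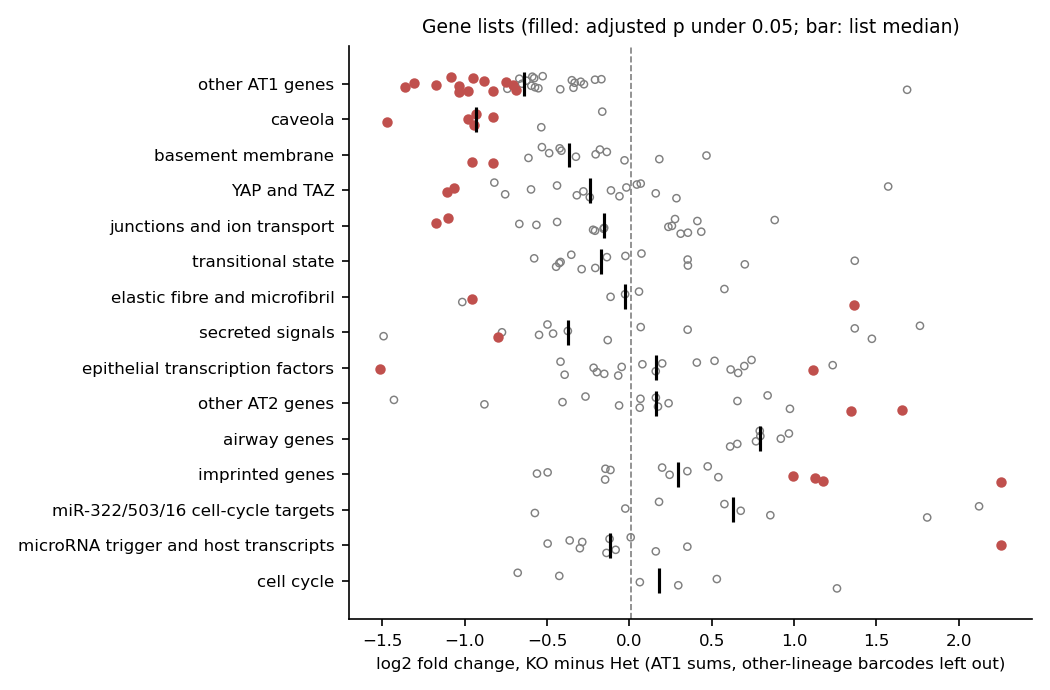
Log2 fold change (KO minus Het) of each tested gene on 15 lists in the AT1 sums with other-lineage barcodes left out; filled points passed an edgeR adjusted p of 0.05, bars are list medians, and the dashed line is the median of all genes. Called genes of the AT1 and caveola lists lie below 0 and those of the imprinted list above 0.

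Other lists had few or no calls in the second reading, where 1.61% of all genes tested were called. Of the 11 tested trigger and host transcripts of microRNA decay, H19 was the 1 called. Nrep and Oip5os1, the mouse homologue of Cyrano, which are known triggers of microRNA decay, had 0.16 and -0.14. Of 8 tested cell-cycle targets of miR-322, miR-503 and miR-16, 0 passed, with a median of 0.63. Ccnd1, a G1 cyclin, had 1.81 (edgeR adjusted p 0.0939), and Ccnd2 had 0.86 (0.0878). Of 10 tested genes of the IGF axis, Igf2 was the 1 called. The lists for glucocorticoid response, stress, interferon, cell cycle, the transitional state between AT2 and AT1, and distal tip progenitors had 0 calls of 11, 16, 8, 6, 14 and 8 tested.

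Because the same libraries also held AT2 cells, the genotype effect in AT1 was compared with that in AT2 by the genotype by cell type term, with the library as a block. With all barcodes 11 of 9855 genes had a term that passed (0.112%). Without other-lineage barcodes in either type there were 107 of 7740 (1.38%), 59 above 0 (0.762%) and 48 below (0.620%), and 54 to 127 with a library left out in turn. AT2 sums were small in KO, at 59, 31 and 44 barcodes against 99 and 70 in Het, and 3.55% of genes passed in them, 1.29% higher and 2.25% lower. Median AT2 depth also differed before that filter, at 3139.5, 5982 and 11258 UMIs against 12863.5 and 14741. After it, the AT2 sums held 324615, 279590 and 479144 UMIs in KO against 1081818 and 870774 in Het. The mirrored rule limits the AT1 markers that an AT2 barcode may hold, and these markers were lower in KO members. Barcodes past both marker thresholds were in neither set. Whether the rule moved barcodes of AT1 character into the KO AT2 sums was not tested.

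Cav2, S100a6 and Cav1 had effects that differed between the types. Cav2 fell in AT1. In AT2 it was measured at 14.8 and 14.1 CPM in Het and 42.6, 73.7 and 67.4 CPM in KO. This was a rise of 2.06 in the edgeR fit of AT2 (adjusted p 0.00214). These Cav2 levels in AT2 rest on few UMIs in each library. The AT1 term minus the AT2 term was -2.90 (SE 0.37, edgeR adjusted p 7.35e-05). For S100a6 the difference was -2.57 (SE 0.39, edgeR adjusted p 0.000506). It was -2.05 for Cav1 (edgeR adjusted p 0.00210), which did not pass without KO1 (0.0564), and -1.44 for Ahnak, a large membrane scaffold (edgeR adjusted p 0.00128). For Emp2 it was -0.70 and did not pass (edgeR adjusted p 0.130).

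The term was above 0 for Sftpc. Its level in AT2 was measured at 136800 and 140300 CPM in Het and at 64410, 56060 and 77420 CPM in KO (-1.07, edgeR adjusted p 0.000432), so that the levels rose in AT1 and fell in AT2. The difference of 2.38 (SE 0.20, edgeR adjusted p 5.44e-08) was called with any library left out. Chil1, a chitinase-like protein of maturing AT2 cells, fell by 3.04 on the log2 scale in AT2 and had -0.06 in AT1, a difference of 2.94 (edgeR adjusted p 0.000490). Fabp5, a fatty-acid-binding protein, fell by 2.04 in AT2 and had 0.16 in AT1, a difference of 2.21 (edgeR adjusted p 0.000338).

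H19 and Fbn2 rose in AT1 with no difference from AT2 that passed. H19 in AT2 went from 49.8 and 35.9 CPM to 344, 358 and 175 CPM, and the difference was -0.50 (SE 0.28, edgeR adjusted p 0.529). For Fbn2 the difference was 0.40 (SE 0.28, edgeR adjusted p 0.656), and for Igf2 it was 0.0026 (SE 0.24, edgeR adjusted p 0.999). These standard errors leave room for differences of either sign. Dlk1 did differ, since it rose in AT1 and fell by 0.96 on the log2 scale in AT2 (edgeR adjusted p 0.0245), a difference of 2.14 (SE 0.29, edgeR adjusted p 0.000204).

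Against the sum of all other passing barcodes, 0 of 16861 terms passed with all barcodes (0%), where 1030 had an unadjusted p under 0.05 (6.11%) and DESeq2 called 4. Without other-lineage barcodes in the AT1 sums, 239 of 16352 passed (1.46%), and 98 to 297 with a library left out in turn. The comparison sum then also held the 171 barcodes left out of AT1. In both readings it held the barcodes past both marker thresholds. It also held those that met both marker limits beside Ptprc, Cdh5, Pecam1 or Pdgfra, 274 and 227 in Het and 75, 48 and 137 in KO. The part of these barcodes in the levels and terms was not tested. S100a6 fell more in AT1 than elsewhere (-0.98, edgeR adjusted p 2.77e-11), as did Cav1 (-1.02, edgeR adjusted p 5.81e-10), whose level elsewhere barely moved (0.0058). The H19 difference was 1.00 (edgeR adjusted p 2.25e-07), but it did not pass without Het2 (0.402) or without KO2 (0.174). For Fbn2 the difference was 0.30 (edgeR adjusted p 0.624), and for Emp2, which fell by 0.82 elsewhere (edgeR adjusted p 0.0175), it was 0.073 (1.00).

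Pf4 again stood apart, with a difference of -3.29 (SE 0.21, edgeR adjusted p 2.81e-50). Terms for Ecm1, Asprv1 and Reg3g rested on a single Het library: Ecm1 had 84 and 2 UMIs in Het1 and Het2, Asprv1 71 and 1, and Reg3g 0 and 260. Without Het1 the terms of Ecm1 and Asprv1 did not pass (edgeR adjusted p 1.00 for each), and without Het2 that of Reg3g did not (0.221). Each also lost its call without KO1 (edgeR adjusted p 0.185, 0.0873 and 0.768), and that of Reg3g also without KO2 (0.951) and KO3 (0.0696).

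**Figure D5:**
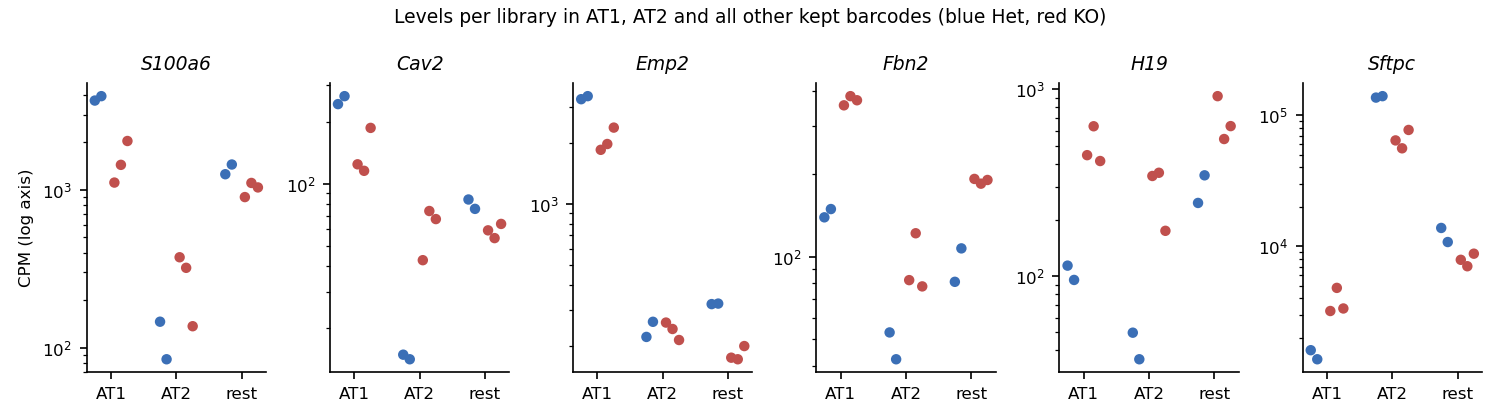
CPM (log axes) of 6 genes in AT1, AT2 and all other passing barcodes (rest) of each library, blue for Het and red for KO. Other-lineage barcodes were left out of AT1 and AT2, and rest holds every passing barcode outside that AT1 set. In AT1 Cav2 lies at 116 to 187 CPM in KO against 243 to 266 in Het, while in AT2 it lies at 42.6 to 73.7 against 14.1 to 14.8.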

How the data were processed

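UMI counts per gene and barcode were used as deposited: per the submitters' processing notes the authors used Cell Ranger 4.0.0 and mm10, and the annotation and strand setting are not given in the sources used here. Barcodes were chosen with Python 3.11.15 (NumPy 2.4.6, pandas 2.3.3, SciPy 1.17.1). Members, gene lists and tests were chosen with earlier results of these data known. Counts were summed per library and tested with edgeR 4.0.16 in R 4.3.3 (TMM, filterByExpr, quasi-likelihood, two-sided, Benjamini-Hochberg over all genes tested). CPM uses TMM-scaled library sizes, and the SE is the absolute log2 fold change divided by the square root of F. Scripts were tested on simulated data with log2 changes of 1. The fit of all AT1 barcodes recovered 0.549% of changed genes, 1 gene with 1 false call, and the second reading 55.7%, 108 genes with 13 false calls. The AT1 to AT2 term recovered 0% with all barcodes, with 1 false call, and 5.64% without other-lineage barcodes, 11 genes with 1 false call. The term against all other barcodes recovered 10.7%, 21 genes with 11 false calls, and 20.3%, 40 genes with 0 false calls. In counts simulated without change, the fit of all AT1 barcodes called 2 genes. There the AT1 to AT2 term with all barcodes called 3, and the other fits called 0. Genes and terms that did not pass may therefore still differ. DESeq2 1.42.0 was an alternative. No doublet caller was run: exclusion genes and other choices of barcodes were used instead. Red-cell barcodes had over 50% haemoglobin UMIs and fewer than 500 genes. Airway barcodes had over 20 Scgb1a1 UMIs or any count of Foxj1, Tmem212 or Ccdc153. The deepest barcodes had over 2 times the median UMIs of the AT1 barcodes in their library. Gene positions were matched for 32235 of 32285 genes.

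Genes were named by rule: the 12 largest changes each way among called, non-overlapping genes of at least 20 CPM, or the 8 smallest p each way where under 8 were called; called list members, AT1 genes and Zswim8; and 5 each way for terms. X, Y, haemoglobin, mitochondrial, Gm and Rik genes, and genes that chose barcodes, were left out. Wdcp, Gm10076, Xist and Esam were named outside the rule, after their values were seen. Wilson intervals cover counting error only. Nothing in the labels names litters or batches, so p-values measure the spread between these libraries.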

Additional observations from a re-analysis of the deposited data

Results flagged for a closer look

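In the sums of all barcodes, 11 genes had a genotype effect that differed between AT1 and AT2 by edgeR's genotype by cell type term (log2, AT1 minus AT2). Each of the 11 lost its call without at least 1 library. In simulated counts this fit recovered 0% of changed genes, and it called 3 genes in counts simulated without change. The part of the AT2 rule's limit on AT1 markers in these terms was not tested. Cav2 had -2.45 (edgeR adjusted p 0.0152), lost without Het1 (0.125), Het2 (0.0762) or KO2 (0.0518). S100a6 had -2.31 (edgeR adjusted p 0.0218), lost without Het1 (0.125), KO1 (0.0619) or KO2 (0.137). Sftpc had 2.183 (edgeR adjusted p 0.0103), which did not pass without Het2 (0.0803) or without KO2 (0.0518), and Sftpb had 1.707 (0.0492), lost without any library but KO3. Npc2, a sterol-binding protein, had 1.313 (edgeR adjusted p 0.0103), lost without Het1, Het2 or KO2. Egfl6, a secreted matrix protein, had 1.775 (edgeR adjusted p 0.0253), lost without any library but KO3. Lbp, which binds bacterial lipopolysaccharide, had 3.297 (edgeR adjusted p 0.0238), lost in the same 4 cases.

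Col6a1 had 2.808 (edgeR adjusted p 0.00615) and Col6a2 2.238 (0.00986), both lost without Het1 or KO2 and Col6a2 also without Het2. Marker-poor barcodes held 74.4% to 96.9% of the Col6a1 UMIs in AT1. Reg3g, an antimicrobial lectin, had -10.67 (edgeR adjusted p 0.0103), and Scgb3a1 had -9.853 (0.000525). Marker-poor barcodes held 98.1% and 98.0% of their UMIs in Het2. The Reg3g term did not pass without Het2 (edgeR adjusted p 0.0610) or without KO3 (0.173), and the Scgb3a1 term did not pass without KO3 (1.00).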

How the results depend on the processing

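The mean AT1 shares were lower in KO under every alternative run, with overlap of the alveolar share in 3 of 10 other choices of barcodes, differing by -0.780 to -2.26 points of passing barcodes and by -2.81 to -16.5 points of alveolar epithelial barcodes. Against 0 genes called in all barcodes, DESeq2 called 33, no low-count filter 216 and the replicate block 8. Other barcodes called 1 (at least 1000 genes and at most 10% mitochondrial), 109 (other-lineage left out), 99 (deepest left out), 272 and 215 (markers at least 0.1% or 0.2% of UMIs), 48 (all 6 markers) and 133 (other-lineage and under 0.1% left out), and leaving out a library 0 to 15. Against 109 in the second reading, no filter called 339, the replicate block 251, the sex covariate 4, all barcodes, at least 4 markers, 0 AT2 markers and no airway barcodes 0 each, 1000 genes 1, the marker shares 272 and 215, all 6 markers 48, and leaving out a library 24 to 127. Scaling by library size alone called 90, with 37.8% higher against 24.8%. Labels do not pair the replicate numbers, and deviations correlated at -0.199 and -0.116.

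Against 11 AT1 to AT2 terms, DESeq2 called 17, no filter 246, 0 AT2 markers 5, 1000 genes 5, other-lineage left out 107, airway left out 1, the marker shares 116 and 127, both 113, and leaving out a library 2 to 83. Against 0 terms for AT1 and other barcodes the counts were 4, 172, 8 (0 AT2 markers), 239 (other-lineage), 195 (deepest), 330 and 265 (marker shares), 201 (all 6 markers), 125 (both) and 0 to 11 (a library left out). In the second reading, leaving out a library gave 54 to 127 and 98 to 297 terms. Reversed values were, with 0 AT2 markers, Sftpb -1.061, Cd24a -0.2175, Klf2 0.7981, Cavin3 0.3919, Aqp1 0.02128 and the S100a6 difference from AT2 1.484; with at least 4 markers Acsl1 -0.5626, Cd24a -0.02822 and Klf2 0.1801; for Klf2 also 0.1174 (all barcodes), 0.05124 (1000 genes) and 0.2845 (no airway). With a library left out, the Ecm1 term against other barcodes ranged from -5.586 to 0.4666 and the Reg3g term from -3.454 to 11.55. The cause was not tested.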
